A study of Mus musculus with 15 samples.

Results

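The genes described here are 9 imprinted genes that lie outside the Meg3 cluster: H19, Igf2, Igf2r, Peg3, Plagl1, Grb10, Mest, Cdkn1c and Ndn. Every probe set whose only gene symbol in the platform annotation is one of these names was taken. This gave 25 of the 45037 probe sets tested, for 8 of the 9 genes and of the 18193 genes with such a probe set. They comprised 8 probe sets for Ndn, 5 for Peg3, 3 each for Plagl1 and Grb10, 2 each for Igf2 and Igf2r, and 1 each for Mest and Cdkn1c. H19 had 0 probe sets of its own, because the probe set that carries its symbol also carries that of Mir675, a microRNA gene inside H19. That probe set, and 1 annotated jointly to Airn and Igf2r, are described apart and were not counted.

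The arrays measured 3 H1 and 4 H2 hyperplastic lesions and 8 samples of normal lung cells, all laser-captured from mouse lung. All groups came from mice with a K-RasG12V knock-in allele, 3 months after an adenovirus carrying Cre recombinase, which switches the allele on in the cells it infects. The normal cells were therefore from lungs that carried the same allele and received the same virus. A colour marker made together with K-RasG12V showed which cells expressed the oncogene, and normal cells were cut from the same sections. The promoter that drives Cre, the age of the mice, the number of animals and how lesions were divided into H1 and H2 are unstated in the labels and the design text. Several samples may share an animal, so p-values measure the spread between these samples. If H1 and H2 were separated by these same profiles, a difference between them is not independent of that choice.

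Imprinted genes are transcribed mainly from 1 parental copy, chosen by DNA methylation laid down in the egg or the sperm and kept afterwards. Many act on growth before birth and fall to low levels in adult tissue. Igf2 encodes a secreted growth factor and is expressed from the paternal copy. Igf2r encodes the receptor that clears this factor and also carries lysosomal enzymes, and in mice it is expressed from the maternal copy. H19 is a maternally expressed non-coding RNA that shares enhancers with Igf2. Plagl1 and Peg3 encode zinc finger proteins, and both are paternally expressed, as are Mest, which encodes a hydrolase-like protein, and Ndn, which encodes the growth-restraining MAGE family protein necdin. Grb10, an adaptor that dampens insulin and IGF1 receptor signalling, and Cdkn1c, which encodes the cyclin-dependent kinase inhibitor p57, are expressed from the maternal copy in most mouse tissues.

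CpG dinucleotides are the sites at which the imprint is written. The windows below are shown because these genes had the probe sets with the lowest p-values for H2 lesions against normal cells. Each runs 250 bases before to 50 bases after an annotated start in RefSeq (GRCm38.p6), is read 5′ to 3′ on the gene's strand, and has every CpG in capitals. Methylation was not measured in these samples, and whether these windows hold the sites of each gene's imprint was not examined. The Igf2r window (chr17:12769657-12769956, minus strand) holds 34 CpG dinucleotides, and 7.73% of the 32851 windows of this length hold at least as many. The Plagl1 window (chr10:13090582-13090881, plus strand) holds 26, a number reached by 16.9% of windows. The Mest window (chr6:30737800-30738099, plus strand) holds 17, reached by 31.4%, and the Ndn window (chr7:62348027-62348326, plus strand) holds 11, reached by 41.4%. All 4 exceed the median window, which holds 7. Where a gene had several windows, the one with the most CpG dinucleotides was shown, and another Mest window holds 8.
Igf2r: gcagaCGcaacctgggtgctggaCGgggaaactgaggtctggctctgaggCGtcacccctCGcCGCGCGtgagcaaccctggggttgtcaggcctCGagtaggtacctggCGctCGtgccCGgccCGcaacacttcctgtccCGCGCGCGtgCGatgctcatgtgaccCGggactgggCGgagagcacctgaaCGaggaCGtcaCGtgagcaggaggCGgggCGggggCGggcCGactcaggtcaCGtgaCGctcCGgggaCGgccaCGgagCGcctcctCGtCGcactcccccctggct
Plagl1: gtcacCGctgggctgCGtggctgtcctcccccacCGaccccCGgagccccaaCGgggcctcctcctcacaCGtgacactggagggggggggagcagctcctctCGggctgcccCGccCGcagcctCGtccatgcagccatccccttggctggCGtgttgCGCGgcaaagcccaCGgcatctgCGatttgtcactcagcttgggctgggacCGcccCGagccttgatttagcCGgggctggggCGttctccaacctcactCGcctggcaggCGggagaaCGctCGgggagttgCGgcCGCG
Mest: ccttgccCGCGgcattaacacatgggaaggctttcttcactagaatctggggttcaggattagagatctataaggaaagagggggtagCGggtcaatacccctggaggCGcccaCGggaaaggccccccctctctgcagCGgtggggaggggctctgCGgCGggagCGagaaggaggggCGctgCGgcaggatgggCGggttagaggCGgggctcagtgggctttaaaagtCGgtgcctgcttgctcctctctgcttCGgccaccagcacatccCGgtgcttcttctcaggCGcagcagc
Ndn: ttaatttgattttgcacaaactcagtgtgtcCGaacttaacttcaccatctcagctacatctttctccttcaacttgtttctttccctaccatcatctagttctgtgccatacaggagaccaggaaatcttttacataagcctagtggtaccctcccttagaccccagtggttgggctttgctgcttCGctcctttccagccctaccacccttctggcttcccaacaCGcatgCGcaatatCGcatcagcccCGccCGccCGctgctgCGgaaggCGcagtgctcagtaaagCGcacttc

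The joint probe set of Mir675 and H19 is listed with the microRNA's name because the microRNA is cut from the H19 transcript. Its mature forms, from RefSeq (GRCm38.p6, minus strand), are given 5′ to 3′ with the seed, bases 2 to 8, in capitals. The 3p form lies at chr7:142577078-142577099 and the 5p form at chr7:142577112-142577133. The seeds differ, so the forms fall into separate seed groups. Probe sets of this kind do not read mature microRNAs.
mmu-miR-675-3p: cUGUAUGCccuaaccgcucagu
mmu-miR-675-5p: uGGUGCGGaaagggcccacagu

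The deposited values are log2 signals made with RMA, which corrects background, equalises probe intensities between arrays and summarises the probes of each probe set. A probe set's signal depends on its probes as well as on its transcript, so levels say nothing of which gene is more abundant. Of the 25 probe sets, 13 had a mean signal above 3.99, which is the array's middle (the median over probe set means), and the other 12 are called dim below for their signal alone. The standard deviation of all log2 values of an array, called its spread here, was 1.26 to 1.41 on H1 arrays, 1.42 to 1.68 on H2 arrays and 1.10 to 1.62 on normal arrays. Every H2 array thus had a wider spread than every H1 array, and the normal arrays covered nearly the whole range. Markers of alveolar type 2 cells, the surfactant-making cells, averaged 7.84 to 9.57 on H1, 8.71 to 10.4 on H2 and 4.60 to 10.1 on normal arrays over 7 of 8 listed genes. Endothelial markers averaged 4.59 to 5.16 on H1, 4.50 to 5.03 on H2 and 4.44 to 6.92 on normal arrays over 8 genes. In lesions against normal cells, 7 of 7 alveolar type 2 markers were higher and 8 of 8 endothelial markers were lower, and 0 of either list passed the test. In H2 lesions alone, 1 of 7 alveolar type 2 markers passed it on the higher side, where 3.38% of all genes passed. Of the endothelial markers, 7 were lower there, 1 was higher and 0 passed. In such captured samples, fewer cells of a type and less RNA per cell cannot be told apart.

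No probe set of these genes differed between any of the groups at an adjusted p under 0.05 (limma over 45037 probe sets, Benjamini-Hochberg). In lesions against normal cells 0 of 25 were called, where 0.169% of all probe sets were. In H1 lesions against normal cells 0 were called, against 0.00222% of all probe sets. In H2 lesions against normal cells 0 were called, against 2.04% of all probe sets. Between H1 and H2 lesions 0 were called, and so were 0% of all probe sets. A share of 2.04% of 25 probe sets is less than 1 probe set, so a count of 0 lies near the background in each comparison. Meg3, an imprinted non-coding RNA of another cluster, had 3 of its 11 probe sets called higher in lesions, 1 in H1 lesions and 3 in H2 lesions in the same fits.

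Signals in lesions and in normal cells were separate, with no overlap, on 0 of 25 probe sets for all lesions and on 0 for H2 lesions, beside 0.171% and 2.97% of all probe sets. At an unadjusted p under 0.05, members also stood near the array as a whole in the comparisons with normal cells. There were 3 of 25 (12%) in lesions against normal cells, where 11.1% of all probe sets passed. There was 1 (4%) in H1 lesions against normal cells, where 3.84% passed, and there were 6 (24%) in H2 lesions against normal cells, where 18.9% passed. Between H1 and H2 lesions the share was larger, with 5 (20%), where 11.5% passed. These were Ndn 1415923_at, 1435382_at and 1435383_x_at, Plagl1 1438588_at and Igf2r 1424111_at, so several probe sets of 1 gene are counted. The median difference over the 25 was -0.15 in lesions against normal cells, beside -0.07 over all probe sets. It was -0.13 in H1 lesions, beside -0.05, and -0.05 in H2 lesions, beside -0.08. For H1 against H2 lesions it was -0.13, beside -0.02. Of the 25 probe sets 8 were on the higher and 17 on the lower side in lesions, 9 and 16 in H1 lesions, and 11 and 14 in H2 lesions, where 39.6%, 42.9% and 42.6% of all probe sets were on the higher side. In H1 against H2 lesions 8 were higher and 17 lower, where 48.6% of all probe sets were higher.

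**Figure D1:**
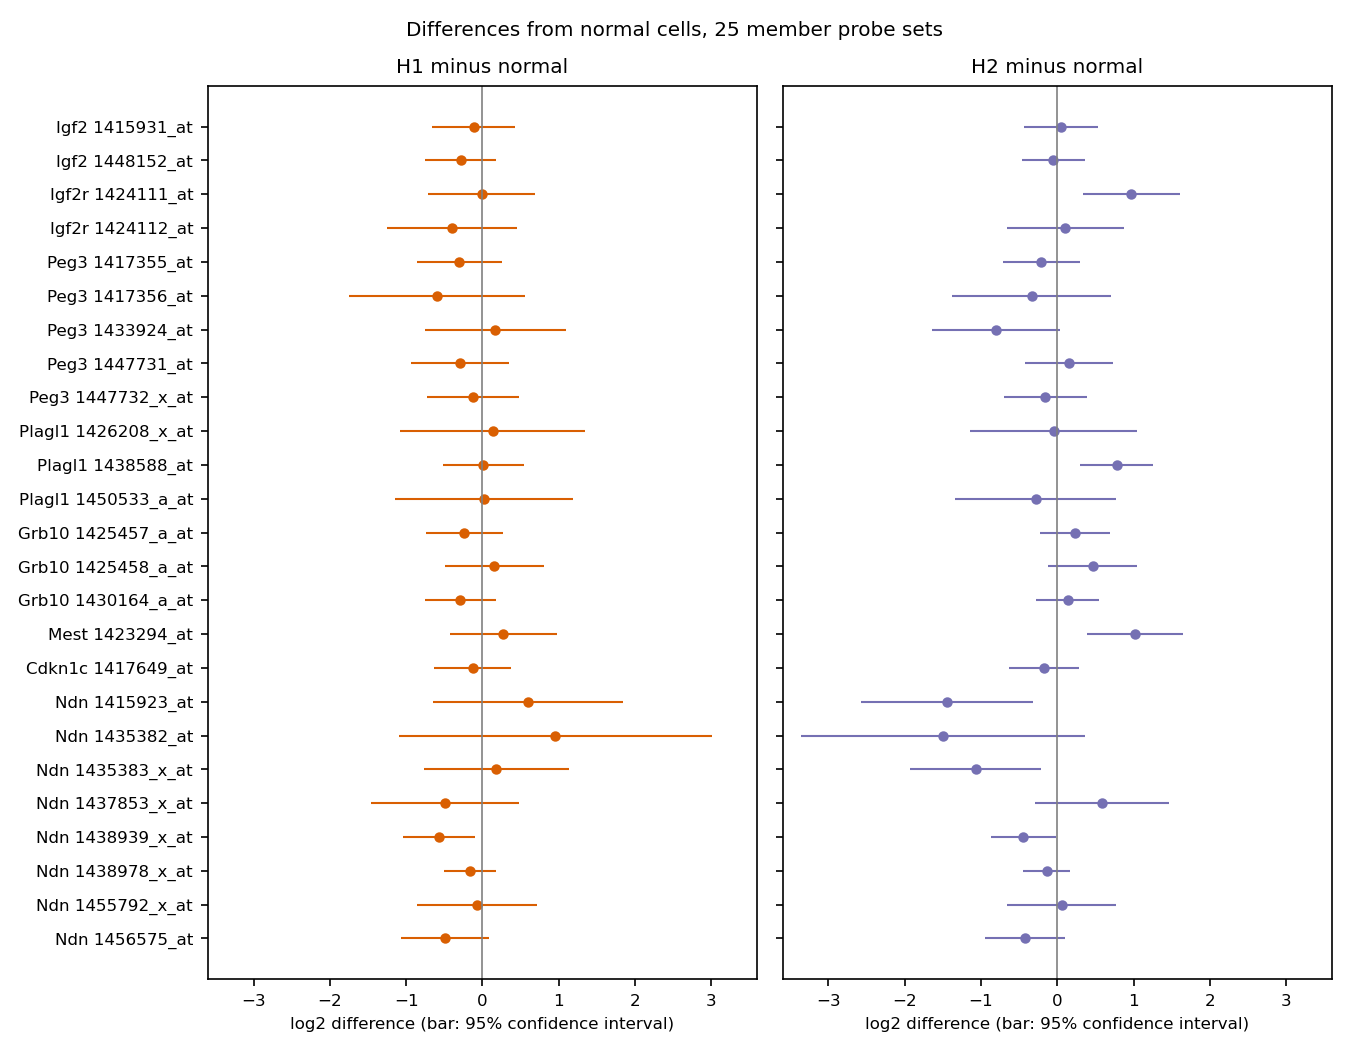
Log2 difference from normal cells (x axis) of each of the 25 probe sets (rows), in H1 lesions on the left and H2 lesions on the right. Points are limma estimates and bars are unadjusted 95% confidence intervals. In the H2 panel the intervals of 3 probe sets lie above 0 and those of 3 lie below it, and the H1 panel has 1 interval that excludes 0, that of Ndn 1438939_x_at. None of the 25 passed the adjusted threshold in either panel.

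The growth factor Igf2 was nearly level across the groups. Its brighter probe set, 1448152_at, had log2 signals of 4.65, 4.39 and 4.38 in H1 lesions and 5.13, 4.51, 4.61 and 4.59 in H2 lesions, against 4.27, 4.75 and 5.14 as the lowest, median and highest in normal cells. Every lesion lay inside the range of the normal cells. The difference was -0.29 ± 0.22 (SE) in H1 lesions and -0.05 ± 0.20 in H2 lesions, with a 95% interval of -0.46 to 0.37 for H2 lesions (limma adjusted p = 0.999 and 0.917). The dimmer probe set, 1415931_at, read 3.10, 3.27 and 3.18 in H1 lesions and 4.03, 2.77, 3.34 and 3.25 in H2 lesions, against a range of 2.86 to 4.00 around a median of 3.27 in normal cells. Its H2 lesions included 1 array above and 1 below all normal arrays, and its differences were -0.12 ± 0.25 in H1 lesions and 0.05 ± 0.23 in H2 lesions.

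The probe set shared by Mir675 and H19, 1448194_a_at, varied far more. It read 3.84, 3.84 and 2.80 in H1 lesions and 8.77, 6.53, 3.87 and 6.23 in H2 lesions. Normal cells ranged over 2.66, a median of 3.41 and 8.08. Signals of 5.75 and above occurred on 3 of 4 H2 arrays and 3 of 8 normal arrays, and on 0 of 3 H1 arrays, so lesions and normal cells overlapped widely. The difference was 1.84 ± 0.96 in H2 lesions and -1.02 ± 1.07 in H1 lesions (limma adjusted p = 0.315 and 0.999), with intervals of -0.21 to 3.88 and -3.28 to 1.24. The H2 difference was 0.80 with array spread in the model, 1.03 without H2 replicate 1 and 2.67 without H2 replicate 6. Over the 15 arrays, with group means removed, the signal ran with the mean of smooth muscle and pericyte markers (r = 0.838, a description over arrays that were normalized together) and less with array spread (r = 0.40). That was the highest among the marker lists compared, with 0.561 for endothelial, 0.528 for fibroblast, 0.33 for alveolar type 2 and 0.256 for macrophage markers. The part of these cell types in this signal was not tested. Igf2, whose enhancers H19 shares, did not show this range on the same arrays. On the arrays at 5.75 or above, Igf2 1448152_at read 5.14 and 5.09 on normal replicates 6 and 1 and 5.13 on H2 replicate 1. It read 4.51 and 4.59 on H2 replicates 5 and 7 and 4.71 on normal replicate 3.

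Igf2r, which clears IGF2, gave a different picture with each of its probe sets. With 1424111_at the signals were 3.46, 4.78 and 4.37 in H1 lesions and 5.52, 5.46, 4.61 and 5.13 in H2 lesions, against 3.59, 4.35 and 4.76 as lowest, median and highest in normal cells. On this probe set 3 of 4 H2 lesions lay above every normal array, and the H1 lesions lay on both sides. The difference was 0.97 ± 0.30 in H2 lesions (95% interval 0.33 to 1.60, adjusted p = 0.101 by limma), where 1.20 would have been needed to pass. With array spread in the model it was 0.59, and the signal ran with spread (r = 0.521). In H1 lesions it was -0.01 ± 0.33. With 1424112_at the signals were 4.29, 4.53 and 5.52 in H1 lesions and 4.64, 5.25, 5.09 and 6.17 in H2 lesions, against a range of 4.52 to 6.59 around 5.10 in normal cells. All 4 H2 lesions lay inside the normal range there, with a difference of 0.11 ± 0.36. The pair of probe sets correlated weakly over the 15 arrays once group means were removed (r = 0.214).

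The probe set shared by Igf2r and Airn, the paternally expressed RNA that runs antisense to it, read 3.88, 3.71 and 3.73 in H1 lesions and 5.18, 5.01, 4.70 and 4.15 in H2 lesions. Normal cells ranged over 3.32, a median of 4.27 and 4.87. Each H2 lesion was above each H1 lesion, and 2 of 4 H2 lesions were above all normal arrays. The differences from normal cells were -0.42 ± 0.31 in H1 lesions and 0.57 ± 0.28 in H2 lesions (limma adjusted p = 0.999 and 0.281). Since the probe set carries both symbols, the signal is not assigned to either strand's gene.

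Plagl1, a zinc finger transcription factor linked to cell cycle arrest, had the smallest p of the 25 in H2 lesions with probe set 1438588_at. It read 5.69, 5.47 and 4.97 in H1 lesions and 5.99, 6.19, 6.07 and 6.33 in H2 lesions, against 4.71, 5.34 and 6.02 in normal cells at the lowest, median and highest array. Of the H2 lesions 3 exceeded every normal array and the other was just below the highest, while H1 lesions lay inside the normal range. The difference was 0.78 ± 0.23 in H2 lesions (95% interval 0.30 to 1.26, limma adjusted p = 0.0866), close to the 0.909 needed to pass, and 0.01 ± 0.25 in H1 lesions. With array spread in the model the H2 difference was 0.53 (r with spread 0.495). It was called with array weights, which give noisier arrays less say (0.81, adjusted p = 0.0331), and without normal replicate 6 (0.87, adjusted p = 0.0454).

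The other Plagl1 probe sets did not share this pattern. Probe set 1426208_x_at read 8.68, 8.79 and 8.76 in H1 lesions and 6.97, 8.73, 8.79 and 9.76 in H2 lesions, against 7.18, 8.89 and 9.72 in normal cells. Probe set 1450533_a_at read 4.99, 5.20 and 5.20 in H1 lesions and 2.76, 4.20, 6.06 and 6.26 in H2 lesions, against 4.43, 5.10 and 5.98 in normal cells. On both, H1 lesions were tightly grouped inside the normal range and H2 lesions were spread beyond both ends of it. Their differences in H2 lesions were -0.05 ± 0.52 and -0.28 ± 0.50, in that order.

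Peg3, a zinc finger protein tied to maternal care and to p53-dependent cell death in mice, was brightest with 1433924_at. That probe set read 5.43, 4.42 and 5.20 in H1 lesions and 4.42, 4.00, 2.95 and 4.79 in H2 lesions, against 3.40, 4.81 and 5.79 in normal cells. The H2 lesions were all below the normal median, and 1 of them was below all normal arrays. The difference was -0.81 ± 0.39 in H2 lesions and 0.17 ± 0.44 in H1 lesions (limma adjusted p = 0.283 and 0.999). The other 4 probe sets were dimmer than the median of the array, with differences of -0.33 to 0.15 in H2 lesions and -0.59 to -0.13 in H1 lesions. None followed the bright one closely, with correlations between 0.105 and 0.293 over the 15 arrays.

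Mest, paternally expressed and named for its expression in embryonic mesoderm, had 1 dim probe set, 1423294_at. It read 3.81, 3.72 and 3.56 in H1 lesions and 5.13, 3.75, 4.86 and 4.01 in H2 lesions, against 2.62, 3.58 and 4.15 in normal cells. Of the H2 lesions 2 stood above every normal array and 2 lay in its upper part, and H1 lesions sat near the normal median. The difference was 1.02 ± 0.30 in H2 lesions, 2.02-fold on the linear scale (95% interval 0.39 to 1.65, limma adjusted p = 0.0873), where 1.19 was needed to pass. In H1 lesions it was 0.27 ± 0.33. With array weights it was called (1.13, adjusted p = 0.0308). Its signal did not run with array spread (r = -0.107), and the difference was 1.09 with spread in the model.

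Grb10, the signalling adaptor, was brightest with 1425458_a_at, which read 6.29, 7.22 and 6.90 in H1 lesions and 6.79, 7.01, 7.20 and 7.45 in H2 lesions. Normal cells ranged over 5.65, a median of 6.85 and 7.16. The groups overlapped, with 2 H2 lesions and 1 H1 lesion above all normal arrays, and the differences were 0.46 ± 0.28 in H2 lesions and 0.16 ± 0.31 in H1 lesions (limma adjusted p = 0.378 and 0.999). The dimmer 1425457_a_at and 1430164_a_at differed by 0.23 ± 0.22 and 0.14 ± 0.20 in H2 lesions and by -0.24 ± 0.24 and -0.29 ± 0.22 in H1 lesions. Over the 15 arrays 1425457_a_at ran against the bright probe set (r = -0.614).

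Cdkn1c, the p57 cell cycle inhibitor, had 1 dim probe set, 1417649_at. It read 2.82, 2.82 and 2.80 in H1 lesions and 2.82, 2.82, 2.82 and 2.64 in H2 lesions, against 2.47, 2.81 and 3.76 in normal cells. All 7 lesions lay inside the normal range. The reading was exactly 2.81651 on H1 replicates 2 and 3 and on H2 replicates 1, 5 and 6. Small differences on this probe set therefore say little. The differences were -0.13 ± 0.24 in H1 lesions and -0.17 ± 0.22 in H2 lesions.

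**Figure D2:**
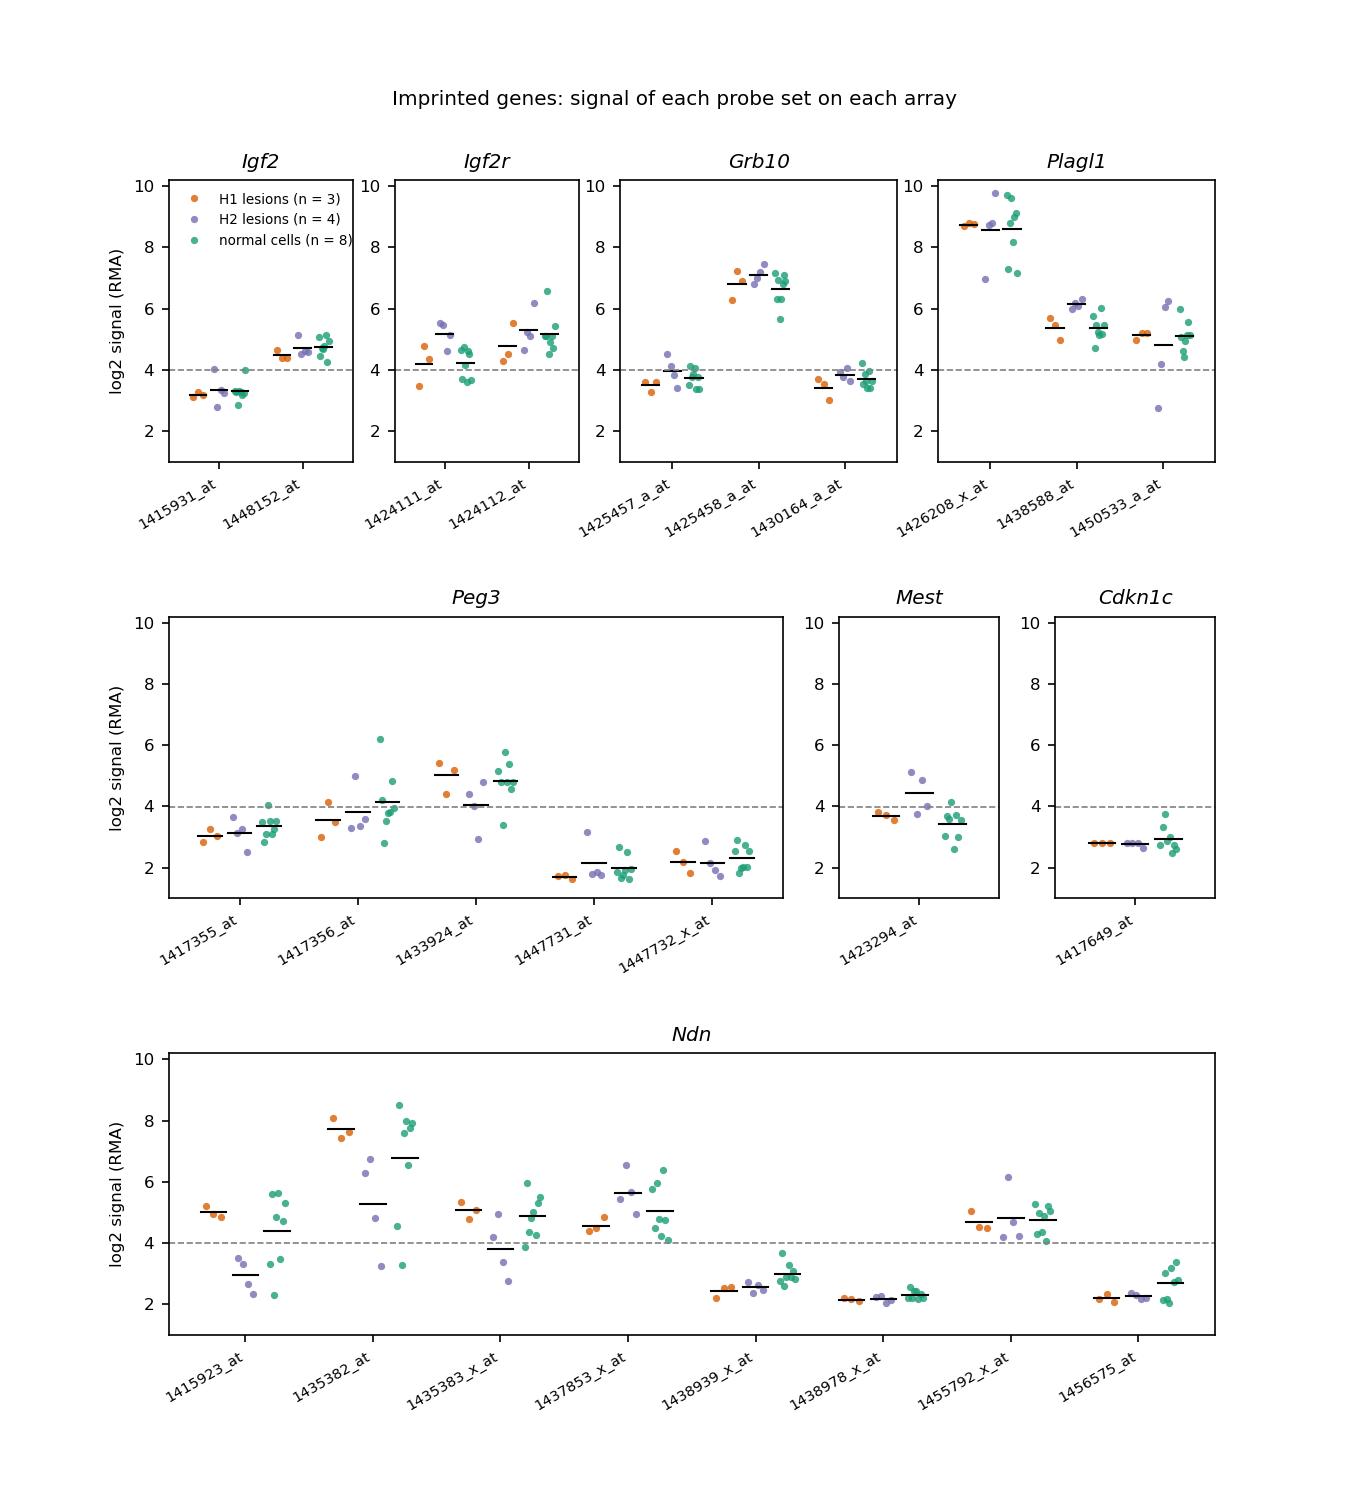
Log2 RMA signal (y axis) of every probe set (x axis, 1 panel a gene) on each of the 15 arrays. Points are arrays, placed from left to right as H1 lesions, H2 lesions and normal cells, short black lines are group means, and the dashed line marks 3.99, the median of all probe set means. The 4 H2 lesions reach 5.13 for Mest and 3.25 for Ndn 1435382_at, while the 3 H1 lesions stay between 7.45 and 8.10 for that Ndn probe set.

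Ndn, the necdin gene, had the largest differences of the 25 in H1 and in H2 lesions, while in all lesions together that was Mest (0.70, beside -0.57 for Ndn 1415923_at). Its brightest probe set, 1435382_at, read 8.10, 7.45 and 7.64 in H1 lesions and 6.29, 6.74, 4.82 and 3.25 in H2 lesions, against 3.29, 7.67 and 8.52 in normal cells. The H1 lesions stood near the normal median, all H2 lesions were below them, and the normal arrays ranged more widely than either. The difference was -1.50 ± 0.88 in H2 lesions and 0.96 ± 0.97 in H1 lesions (limma adjusted p = 0.369 and 0.999), and 3.51 would have been needed for a call in H2 lesions.

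Probe set 1415923_at had the same order, with 5.22, 4.96 and 4.84 in H1 lesions and 3.53, 3.30, 2.67 and 2.35 in H2 lesions, against 2.32, 4.80 and 5.64 in normal cells. Its difference was -1.44 ± 0.53 in H2 lesions (95% interval -2.57 to -0.32, limma adjusted p = 0.163) and 0.60 ± 0.59 in H1 lesions. Probe set 1435383_x_at read 5.33, 4.79 and 5.09 in H1 lesions and 4.21, 4.95, 3.38 and 2.75 in H2 lesions, against 3.88, 4.92 and 5.95 in normal cells, with differences of -1.07 ± 0.41 and 0.18 ± 0.45 in H2 and H1 lesions. Of these, 1415923_at was called with array weights (-1.77, adjusted p = 0.0264) and without normal replicate 3 (-1.74, adjusted p = 0.0322), and 1435383_x_at with array weights (-1.31, adjusted p = 0.0386).

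These 3 Ndn probe sets moved with the spread of the arrays. With group means removed, their correlations with spread over the 15 arrays were -0.927 for 1435382_at, -0.936 for 1415923_at and -0.853 for 1435383_x_at. The median over all probe sets was -0.03, and 0.213% of them had a value as low as that of 1415923_at. The low signals were on wide arrays of both kinds: H2 replicates 6 and 7 read 4.82 and 3.25 with 1435382_at, and normal replicates 1 and 3 read 4.56 and 3.29. With spread in the model the H2 difference was 0.68 for 1435382_at, in the opposite direction, -0.14 for 1415923_at and -0.18 for 1435383_x_at. Array spread and lesion subtype ran together in these samples, since H1 and H2 arrays did not overlap in spread.

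Other measures moved with these Ndn signals. Within groups 1415923_at had r = -0.846 with the mean of alveolar type 2 markers, -0.835 with fibroblast and -0.807 with endothelial markers, and -0.275 with smooth muscle and pericyte markers. The signal difference between the 3′ and 5′ Actb control probe sets, a sign of RNA length, was -1.60, -1.30 and -1.17 on normal replicates 2, 4 and 5, where 1435382_at read 8.52, 7.60 and 7.98. It was -0.03 and -0.17 on normal replicates 1 and 3, where 1435382_at was low. Other arrays did not follow this order. On normal replicates 7 and 8 the Actb difference was -0.37 and -0.33, where 1435382_at read 7.75 and 7.91. On H1 replicate 4 and H2 replicate 5 it was -0.04 and 0.25, where 1435382_at read 7.64 and 6.74. With that Actb difference in the model the H2 difference was -0.64 for 1435382_at, -0.76 for 1415923_at and -0.80 for 1435383_x_at. The part of each in the Ndn differences was not tested.

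**Figure D3:**
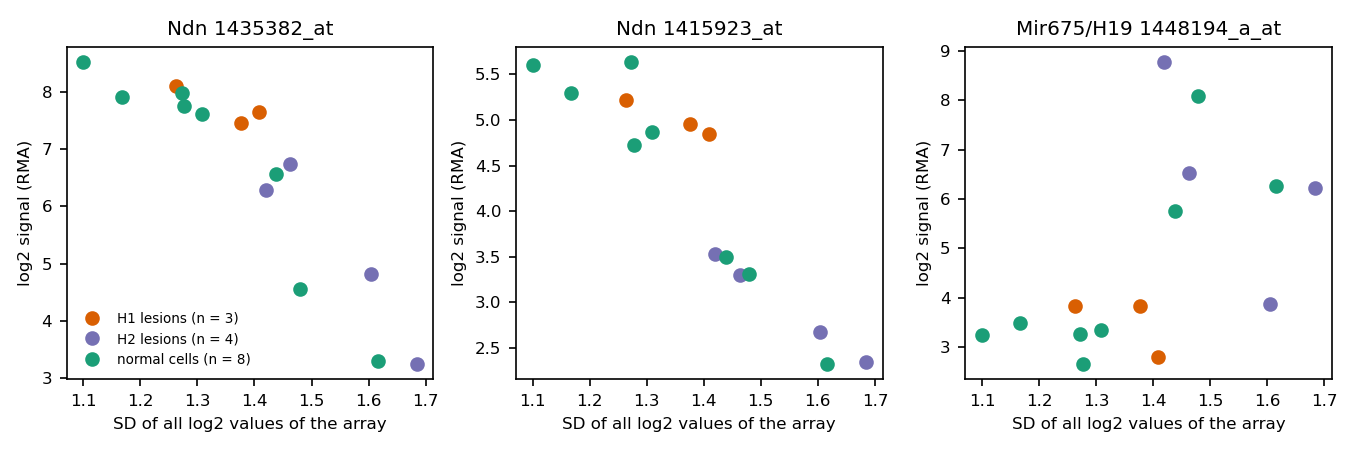
Log2 RMA signal (y axis) against the standard deviation of all log2 values of the same array (x axis) for Ndn 1435382_at, Ndn 1415923_at and the probe set shared by Mir675 and H19. Each point is 1 array, coloured by group. Both Ndn panels fall with spread in lesions and normal cells (r = -0.927 and -0.936 within groups), and the third shows 6 arrays at 5.75 or above, none of them from H1 lesions.

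The remaining 5 Ndn probe sets differed among themselves. Probe set 1437853_x_at ran with spread in the other direction, with 4.40, 4.48 and 4.84 in H1 lesions and 5.44, 6.54, 5.66 and 4.96 in H2 lesions, against 4.12, 4.77 and 6.38 in normal cells (r with spread 0.575). Probe set 1455792_x_at differed by 0.06 ± 0.34 in H2 lesions and -0.07 ± 0.37 in H1 lesions, and did not run with spread (r = -0.07). The dim probe sets 1438939_x_at, 1456575_at and 1438978_x_at were lower in lesions by -0.50 ± 0.17, -0.45 ± 0.20 and -0.15 ± 0.12, with unadjusted p = 0.00868, 0.0402 and 0.239 by limma. All 3 also ran against spread, less closely (r = -0.583, -0.578 and -0.681), and followed 1435382_at (r = 0.57, 0.609 and 0.634). The first of them read 2.21, 2.54 and 2.56 in H1 lesions and 2.75, 2.38, 2.63 and 2.49 in H2 lesions, against 2.59, 2.90 and 3.69 in normal cells, and its adjusted p in lesions against normal cells was 0.282. Its H1 lesions did not overlap the normal cells, which made it 1 of 25 (4%), beside 1.29% of all probe sets.

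Set directly against each other, H1 and H2 lesions did not overlap on 5 of the 25 probe sets (20%), beside 16.9% of all probe sets. Ndn 1415923_at was 2.04 ± 0.66 higher in H1 lesions (95% interval 0.64 to 3.45) and Ndn 1435382_at 2.46 ± 1.09 higher, with adjusted p = 0.35 and 0.415 by limma. With spread in the model these were 0.84 and 0.46. H1 lesions were on the lower side for Ndn 1437853_x_at (-1.08 ± 0.52), Plagl1 1438588_at (-0.77 ± 0.28) and Peg3 1447731_at (-0.44 ± 0.34). With spread in the model these were -0.52, -0.54 and -0.71. The Peg3 probe set is dim, and its difference was -0.10 without H2 replicate 1. Both joint probe sets also separated the subtypes, with -0.99 ± 0.35 for Airn and Igf2r and -2.86 ± 1.20 for Mir675 and H19 (limma adjusted p = 0.356 and 0.397), which became -0.83 and -1.91 with spread in the model. None of these passed the threshold, and 0 probe sets of the whole array did.

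The members did not vary as a block across the 15 arrays. With each gene taken as its brightest probe set and group means removed, the correlations of the 28 pairs ran between -0.676 (Igf2r and Ndn) and 0.481 (Igf2r and Grb10). Igf2 and Igf2r, ligand and receptor, had r = -0.132. The genes whose signals were most like each member's, among 11562 genes above the median of the array, were Zfp239 for Igf2 (r = 0.889), Fam171a1 for Igf2r (0.922), Hcfc2 for Peg3 (0.807), Mast4 for Plagl1 (0.932), Mgst1 for Grb10 (0.882) and Ciapin1 for Ndn (0.994). The next were Slc1a7 for Igf2 (0.884), Mrps31 for Igf2r (0.907), Gp2 for Peg3 (0.774), Prkd3 for Plagl1 (0.918), Zfp809 for Grb10 (0.863) and Klhl2 for Ndn (0.988). These are the highest of many values over arrays that share their spread, and are given as a description.

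Other imprinted genes were taken as their brightest probe set in a fit over 18193 genes. In H2 lesions against normal cells, where 3.38% of genes were called, 0 of 19 paternally expressed and 2 of 19 maternally expressed genes were called. Which parental copy was expressed was not measured here, and whether each listed gene is imprinted in adult lung was not examined. Ppp1r9a, which encodes an actin-binding regulator of protein phosphatase 1, rose by 1.46 ± 0.36 (limma adjusted p = 0.0373). It read 6.58, 6.68 and 6.90 in H1 lesions and 6.34, 6.99, 7.42 and 8.17 in H2 lesions, against 4.79, 6.00 and 6.49 in normal cells. Of the H2 lesions 3 were above all normal arrays, and 4 of its 5 probe sets were on the higher side in H2 lesions.

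Slc22a2, an organic cation transporter gene next to Igf2r in the imprinted region, fell by 0.81 ± 0.20 in H2 lesions (limma adjusted p = 0.039). It read 4.85, 4.78 and 4.73 in H1 lesions and 4.24, 4.10, 4.28 and 4.27 in H2 lesions, against 4.34, 5.17 and 5.46 in normal cells, so every H2 lesion was below every other array. The lowest p among paternally expressed genes in H2 lesions belonged to Zdbf2 (-0.66 ± 0.19, adjusted p = 0.0633), Peg10 (0.90 ± 0.32, 0.129) and Mkrn3 (-1.03 ± 0.43, 0.184). Median differences were -0.20 for the paternally and -0.07 for the maternally expressed list, beside -0.04 over all genes.

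Of the 15 measured genes of the IGF axis, which covers ligand, receptors, substrates and binding proteins, 0 were called in H2 lesions. Over all genes 3.38% were called, so a count of 0 lies near the background. The lowest p belonged to Igfbp7, a binding protein of low IGF affinity (1.20 ± 0.49), Insr, the insulin receptor (0.97 ± 0.40) and Igf2bp3, which binds Igf2 mRNA (-0.52 ± 0.24), with limma adjusted p = 0.176, 0.176 and 0.229. The median over the list was -0.01.

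Of 13 genes that write, keep or remove DNA methylation or guard imprints, 1 was called higher and 1 lower in H2 lesions. The share over all genes in that comparison was 3.38%. Dnmt3a, a de novo DNA methyltransferase, rose by 0.99 ± 0.24 (limma adjusted p = 0.0349), with 6.06, 6.03 and 5.91 in H1 lesions and 6.58, 6.97, 5.91 and 7.18 in H2 lesions, against 5.07, 5.68 and 6.08 in normal cells. Of its H2 lesions 3 exceeded all normal arrays, and 5 of 5 of its probe sets were on the higher side. Trim28, the co-repressor that imprint-guarding zinc finger proteins recruit, fell by 1.18 ± 0.30 (limma adjusted p = 0.0422) on 1 probe set. It read 5.10, 4.72 and 5.09 in H1 lesions and 3.65, 3.28, 3.92 and 4.68 in H2 lesions, against 4.25, 5.24 and 5.60 in normal cells, so 3 of 4 H2 lesions were below all normal arrays. Its other probe set differed by 0.13. Zfp445, such a zinc finger protein, had a difference of 1.33 ± 0.36 (adjusted p = 0.0557).

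These 4 calls changed with the processing. The members were tested over 45037 probe sets and these lists over 18193 genes. In the fit over probe sets, limma adjusted p in H2 lesions was 0.0463 for Ppp1r9a and 0.044 for Dnmt3a. It was 0.0501 for Slc22a2 and 0.0525 for Trim28, which would not have been called there. Of 11 other settings, Ppp1r9a and Dnmt3a were called in 3 each, Trim28 in 4 and Slc22a2 in 5, and of 15 fits that each left out 1 array they were called in 6, 8, 4 and 4. In lesions together, in H1 lesions and between H1 and H2 lesions, 0 genes of these 4 lists were called, where 0.291%, 0.011% and 0.0055% of all genes were.

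**Figure D4:**
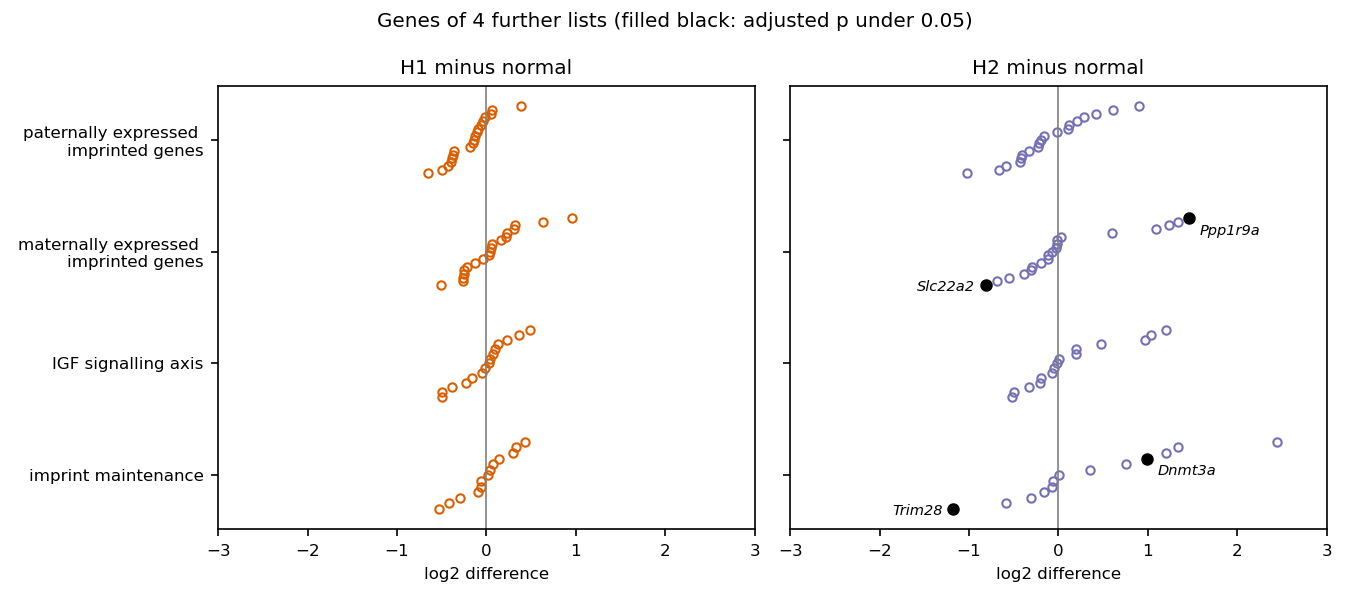
Log2 difference from normal cells (x axis) of each gene in 4 further lists (rows), in H1 lesions on the left and H2 lesions on the right. Each point is 1 gene taken as its brightest probe set, and filled points passed an adjusted p of 0.05. The filled points are Ppp1r9a at 1.46, Slc22a2 at -0.81, Dnmt3a at 0.99 and Trim28 at -1.18, all for H2 lesions.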

How the data were processed

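The authors deposited RMA log2 values for the probe sets of an Affymetrix mouse array, made with the affy package and RMA, per the submitters' processing notes, which give no version. RNA was extracted with PicoPure and amplified with WT-Ovation One-Direct, per the labels' protocols. Amplification from few cells and probe summaries can add spread between arrays. Of 45101 probe sets, 64 controls were left out. Gene symbols came from the platform annotation: 34945 probe sets had 1 symbol, 932 several and 9160 none. All 25 member probe sets matched the RefSeq gene table by gene ID.

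Differences were tested with limma 3.58.1 (R 4.3.3, lmFit and eBayes), lesions against normal cells in a fit with 2 groups and the other comparisons in a fit with 3 groups over all 15 arrays. P-values are two-sided, adjusted by Benjamini-Hochberg over all probe sets of a comparison, and called under 0.05. The difference needed for a call is the one that would reach that threshold at the probe set's own standard error. Other lists were tested at gene level, with the probe set of highest mean for each of 18193 genes. Within lists, called genes and up to 3 with the lowest p are named. The calculation was tested on simulated data. The alternatives tried were other centring, normalization, filters, probe summaries, priors, array weights, covariates, a replicate block, other groupings and leaving out each array. The number of arrays limits the precision. The members and lists were chosen with earlier results of these data known. The listed genes Zrsr1, Slc22a3, Kcnk9, Igf2bp2 and Lamp3 had no probe set of 1 symbol and were not used.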

Additional observations from a re-analysis of the deposited data

Results flagged for a closer look

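In 5 of 62 groups of 4 or 8 arrays tested (8.06%), 1 array stood apart from the others by its gap relative to the group's range, where chance sets apart about 5%. These were normal replicate 8 for Igf2 1415931_at (4.002, the next array at 3.304), H2 replicate 1 for Igf2 1448152_at (5.134, the next at 4.615), normal replicate 3 for Igf2r 1424112_at (6.591, the next at 5.42), H2 replicate 1 for Peg3 1447731_at (3.175, the next at 1.861) and H2 replicate 7 for Cdkn1c (2.64, the next at 2.817). H2 replicate 1 accounts for 2 of the 5. On the dim Cdkn1c probe set the other H2 arrays all read 2.817, so any different value would have been set apart there. For Ndn 1415923_at and 1435382_at every H1 lesion lay above the normal mean and every H2 lesion below it, and the subtypes differed by 2.043 and 2.456. The difference itself did not pass the threshold (limma adjusted p = 0.35 and 0.415), and was 0.84 and 0.46 with array spread in the model. The side depends on the reference for 1435382_at, whose normal median was 7.67, above the H1 readings of 7.45 and 7.64. For 1415923_at every H1 lesion also lay above the normal median of 4.80.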

How the results depend on the processing

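The count of probe sets called for these genes was 0 of 25 in each of the 4 comparisons, and it stayed 0 in every alternative for lesions, for H1 lesions and between H1 and H2 lesions. In H2 lesions against normal cells it was 4 with array weights, 0 to 1 when each array was left out in turn, and 0 in the other settings. Array weights also moved the whole table, to 2333 probe sets higher and 892 lower in H2 lesions, beside 767 and 152 without them. The sign of the difference changed in at least 1 alternative for 14 of 25 probe sets in lesions, 12 in H1 lesions, 13 in H2 lesions and 12 between H1 and H2 lesions. All of those were uncalled values in both settings. Over all probe sets, calls in lesions ranged over 22 to 214 higher and 2 to 53 lower (73 and 3 in the reported fit), in H1 lesions over 0 to 18 higher and 0 to 3 lower (1 and 0), and between H1 and H2 lesions over 0 to 23 higher and 0 to 53 lower (0 and 0). Leaving out 1 array gave 19 to 323 higher in lesions and 171 to 1667 higher in H2 lesions.

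Lesion and normal samples share replicate numbers. Of 7 same-numbered pairs 3 had a correlation of deviations over 0.1 (range -0.316 to 0.488), and 2 lesions correlated best with the normal array of their own number, so these correlations do not show that the numbers pair the samples. Whether same-numbered samples share an animal is unstated in the labels, and pairing is unresolved. With the replicate number as a block, 0 member probe sets were called in each comparison, and the whole table in H2 lesions had 16 higher and 1 lower. With 3 H1 arrays, members needed a log2 difference between 1.64 and 9.84 to be called in H1 lesions, so a count of 0 there says little.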
